A study of Mus musculus with 7 samples.

Results

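The Slc22 genes encode membrane carriers for organic cations, organic anions, zwitterions and carnitine. Of 9 genes of this family listed for description, 8 had a probe set with 1 gene symbol on the array, among 18194 genes tested in all. They were Slc22a29, Slc22a4, Slc22a5, Slc22a21, Slc22a16, Slc22a17, Slc22a18 and Slc22a23, with 10 probe sets between them. Slc22a3, which encodes a carrier of monoamines and other organic cations, had no probe set under its name in the annotation used and is not described by values. The family was selected on the genotype difference of Slc22a29, the gene with the largest rise in the series. The genotype differences of the members are therefore given as a description and support nothing on their own.

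Whole testis was compared between 3 arrays of Phf13 knockout mice and 4 arrays of mice labelled wild type, with an age of 15 to 20 weeks for both groups. Each array is one Affymetrix expression measurement with log2 signals for 45101 probe sets. The way the knockout allele was made, the strain and whether each array is a separate animal are not given in the sources used here, so the spread between arrays may be partly technical. Phf13, which encodes a PHD finger protein that reads methylated lysine on histone H3, had log2 signals of 6.04, 5.83 and 5.71 in knockout arrays and 8.66, 8.64, 8.73 and 8.54 in wild type arrays. The knockout labels therefore match the level of the targeted transcript on every array (log2 difference −2.78, limma adjusted p = 8.76e-06).

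Slc22 proteins share a fold with many membrane-spanning helices and move small charged molecules along their gradients or in exchange for other ions. They are best known in kidney and liver, where they take up drugs and metabolites. In the testis, carnitine carriers of the family are known to supply germ cells and sperm with carnitine, which carries long-chain fatty acids into mitochondria. Whole testis holds germ cells, Sertoli cells and interstitial cells together, and in such bulk samples fewer cells of a type and less RNA per cell cannot be told apart.

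Promoter windows of 300 bases, from 250 before to 50 after the transcription start, were available from RefSeq (GRCm38.p6) for 8 of the 9 members, all but Slc22a21. The 4 windows below are shown because they belong to the gene with the large difference, to its neighbour that shares a probe set with it, to a gene that was lower in knockout testis and to a gene that was near equal. They are written 5′ to 3′ on the strand of the gene, all 300 bases long, and capitals mark each CpG dinucleotide (CG, which reads the same on both strands). The window of Slc22a29 lies at chr19:8218851-8219150 (minus strand), Slc22a30 at chr19:8405056-8405355 (minus strand), Slc22a18 at chr7:143473539-143473838 (plus strand) and Slc22a5 at chr11:53891654-53891953 (minus strand).
Slc22a29: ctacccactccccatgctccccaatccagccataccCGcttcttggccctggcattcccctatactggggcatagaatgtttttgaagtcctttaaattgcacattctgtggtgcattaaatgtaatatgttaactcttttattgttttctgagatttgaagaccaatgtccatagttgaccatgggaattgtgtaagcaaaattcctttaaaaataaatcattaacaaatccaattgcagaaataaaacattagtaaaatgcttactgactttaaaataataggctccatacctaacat
Slc22a30: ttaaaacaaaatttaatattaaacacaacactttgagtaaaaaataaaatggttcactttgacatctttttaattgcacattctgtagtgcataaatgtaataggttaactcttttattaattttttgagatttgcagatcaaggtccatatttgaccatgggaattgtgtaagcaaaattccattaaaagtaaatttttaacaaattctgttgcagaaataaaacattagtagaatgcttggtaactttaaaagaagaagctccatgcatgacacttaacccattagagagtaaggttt
Slc22a18: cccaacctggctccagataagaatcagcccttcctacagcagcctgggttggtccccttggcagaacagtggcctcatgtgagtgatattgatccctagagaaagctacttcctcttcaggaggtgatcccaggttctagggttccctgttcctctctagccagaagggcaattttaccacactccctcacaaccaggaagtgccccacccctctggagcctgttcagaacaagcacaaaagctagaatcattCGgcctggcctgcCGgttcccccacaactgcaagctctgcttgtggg
Slc22a5: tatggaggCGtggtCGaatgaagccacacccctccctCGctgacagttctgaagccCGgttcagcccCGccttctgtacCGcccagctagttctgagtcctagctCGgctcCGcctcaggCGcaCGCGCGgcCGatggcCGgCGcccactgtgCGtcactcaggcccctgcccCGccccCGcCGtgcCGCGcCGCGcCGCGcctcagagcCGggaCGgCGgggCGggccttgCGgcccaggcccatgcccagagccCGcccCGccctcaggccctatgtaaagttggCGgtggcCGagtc

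The windows of Slc22a29 and Slc22a30 are AT-rich and hold almost no CpG, while that of Slc22a5 is dense in it. Slc22a29 has 1 CpG and a GC content of 36.3%, and 94.6% of the 32851 promoter windows in the table hold at least as many. Slc22a18 has 2 CpGs, a count reached by 85.9% of windows, and Slc22a3 has 5 (62.0%). The germ cell carnitine carrier gene Slc22a16 has 8 (48.6%) and Slc22a17 has 13 (37.9%). Slc22a4 has 29 (12.9%), Slc22a5 has 34 (7.7%) and Slc22a23 has 38 (5.0%). The median over all windows was 7. The windows of Slc22a29 and Slc22a30 were identical at 68.1% of the columns of a global alignment, gaps counted, and those of Slc22a28 and Slc22a30 at 94.1%. With Slc22a28 the window of Slc22a29 reached 68.0%, and with the other chromosome 19 windows 47.6% to 54.5%. These are counts of letters and say nothing about what binds there.

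**Figure D1:**
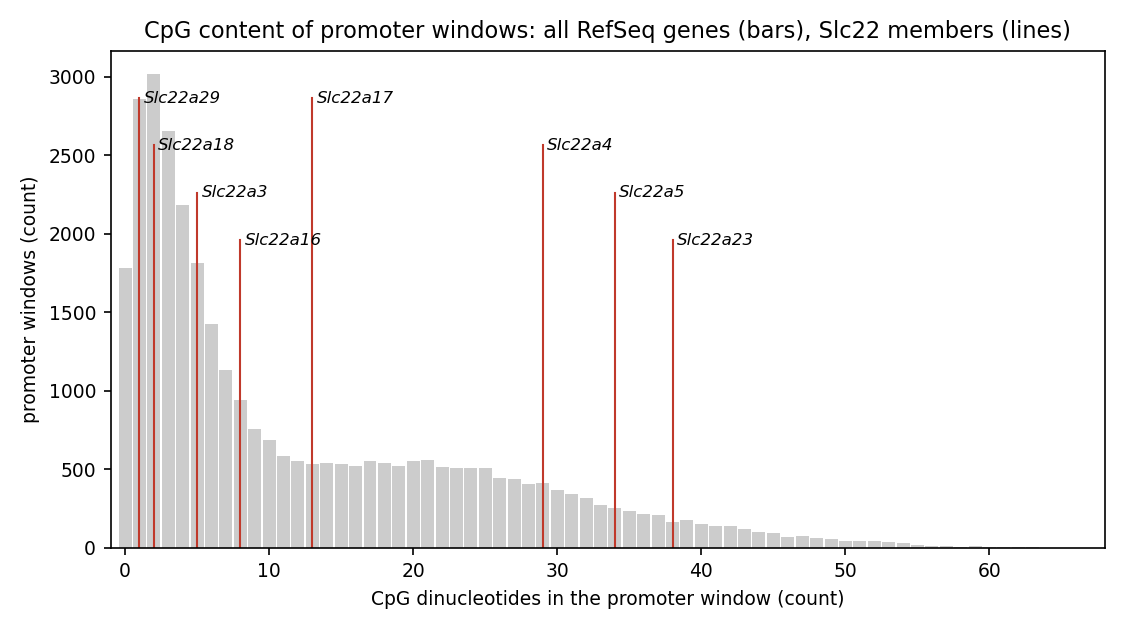
Number of RefSeq promoter windows (y axis, count) against the number of CpG dinucleotides in the 300-base window (x axis, count), as grey bars; red lines of arbitrary height mark the 8 Slc22 members with a window. Slc22a29 (1) and Slc22a18 (2) sit at the low end, and Slc22a4 (29), Slc22a5 (34) and Slc22a23 (38) at the high end.

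Slc22a29 is a poorly characterised member of the organic anion transporter branch and lies in a row of related genes on chromosome 19, between Slc22a28 and Slc22a30. Its probe set, 1425222_x_at, had log2 signals of 6.78, 5.98 and 5.23 in the knockout arrays. In the wild type arrays they were 4.18, 3.49, 3.65 and 3.41. The groups did not overlap: the lowest knockout array lay above the highest wild type array, and the knockout arrays also spread more widely than the wild type arrays. The means were 5.997 ± 0.775 (SD, n = 3) and 3.68 ± 0.35 (SD, n = 4), a log2 fold change of 2.31 (SE 0.33), or 4.97-fold. The gene passed the limma threshold of adjusted p 0.05, which 9.07% of all genes passed upwards. As this contrast chose the gene, nothing is read from that call.

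The wild type signals of Slc22a29 were below the array medians, which ran from 5.01 to 5.08, and no detection call is at hand for them, which leaves the size of the fold uncertain. All 3 knockout signals were above them. Arrays whose titles share their leading digits form 3 groups with both genotypes in each and were treated as a possible batch. Within these groups the difference was 2.60, 2.41 and 1.82. As the genotypes did not overlap, any grouping would show knockout higher, so nothing is read from these signs. Knockout 1 and wild type 1, the highest array of each genotype, belong to the same group. With 1 array left out the log2 fold change lay between 1.92 and 2.70.

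Probe set names ending in _x_at mark probes that can also match other transcripts, and near relatives of Slc22a29 are on the array. A further probe set, 1451635_at, is assigned to both Slc22a29 and Slc22a30. It had log2 signals of 7.41, 6.50 and 6.16 in knockout arrays and 4.58, 3.50, 3.70 and 4.15 in wild type arrays. The groups again did not overlap, and knockout 1 was again the brightest array of its group and wild type 1 of its own. The difference was 2.71 (SE 0.33). Over the 7 arrays the shared probe set correlated with that of Slc22a29 at r = 0.981, and at 0.858 after the mean of each genotype was removed. Both probe sets were designed to the same transcript accession, so they are not separate evidence.

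Slc22a30 has a probe set of its own, and it showed a smaller difference. Its log2 signals were 4.07, 3.79 and 3.63 in knockout and 3.54, 3.63, 3.38 and 2.98 in wild type arrays, so the highest wild type array equalled the lowest knockout array. The genotypes differed by 0.45 log2 units (SE 0.16, limma adjusted p = 0.0954), which did not pass. With the title groups as a block it did (0.47, limma adjusted p = 0.036), and in the other settings adjusted p ran from 0.0758 to 0.263. Slc22a27, the nearest measured gene on the other side, was dim on every array (2.22 to 2.56), and differed by 0.12 between genotypes (SE 0.08, limma adjusted p = 0.305). How far signal from these relatives enters the Slc22a29 signal was not tested, and the values of Slc22a29 and Slc22a30 are uncertain to that extent.

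**Figure D2:**
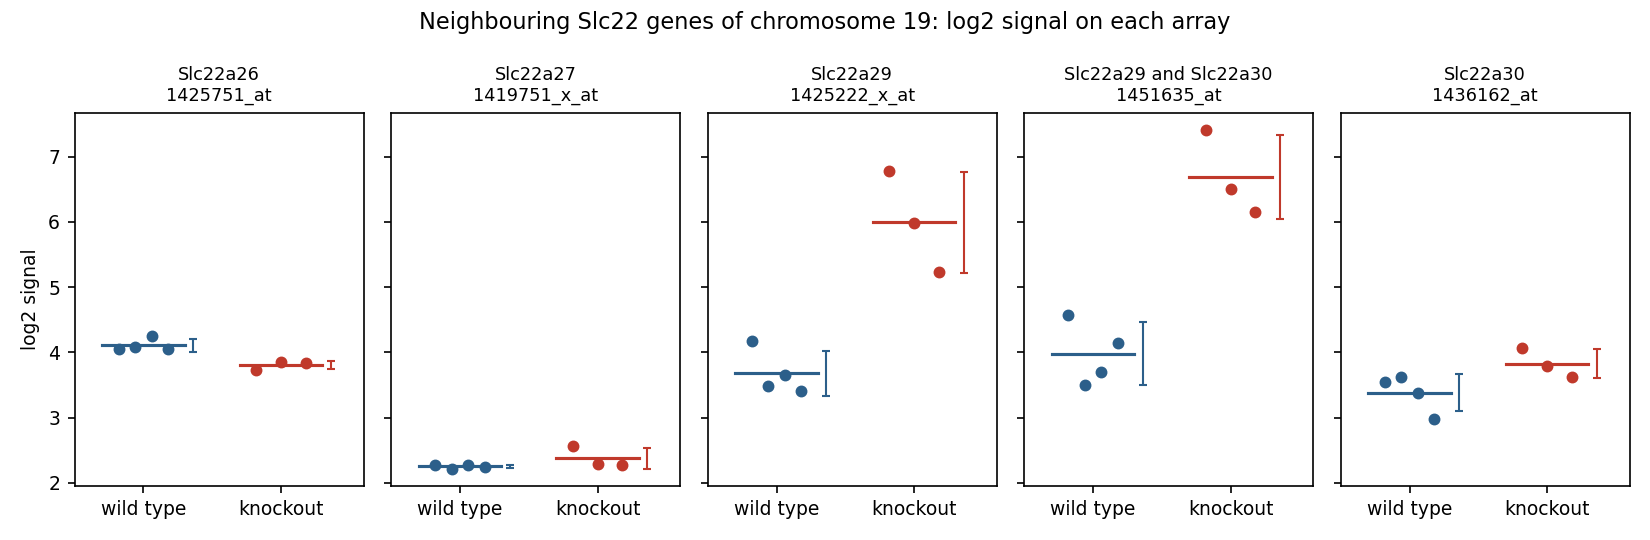
Log2 signal (y axis) on each array (points) for 5 probe sets of Slc22 genes that lie near each other on chromosome 19, by genotype (x axis); horizontal lines are means and bars beside them 1 SD. The probe set of Slc22a29 and the one shared by Slc22a29 and Slc22a30 separate the 3 knockout arrays (5.23 to 7.41) from the 4 wild type arrays (3.41 to 4.58), while the other 3 stay at or below 4.25.

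The 5 genes whose signals over the 7 arrays were most like those of Slc22a29 by Pearson's r were Srpr (0.983), Inppl1 (0.974), Tmem52 (0.969), Kdm3b (0.967) and Zfp982 (0.965). Srpr encodes a subunit of the signal recognition particle receptor and Inppl1 a lipid phosphatase. The r values include the genotype difference. Tmem52 and Zfp982 lie on chromosome 4, as Phf13 does, and whether this bears on their differences was not tested. All but Tmem52 passed the threshold, which 9.07% of all genes passed upwards. As the genes were picked for likeness to Slc22a29, nothing is read from these calls. With 1 array left out Srpr passed in 1 of 7 settings, and Inppl1 and Kdm3b in 0. The log2 fold changes of the 5 genes were smaller than that of Slc22a29, 0.26, 0.28, 0.26, 0.23 and 0.99. On the mean of all probe sets those of Srpr (0.06) and Zfp982 (0.42) were smaller still.

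The carnitine and zwitterion carriers did not move as a block. Slc22a4, Slc22a21 and Slc22a5 lie side by side on chromosome 11, and Slc22a16 is on chromosome 10. Slc22a21, a carnitine carrier described from mouse testis, had the largest fall among the members by the brightest probe set of each. The second probe set of Slc22a18 differed by more (−0.58). Log2 signals of Slc22a21 were 8.21, 8.38 and 8.13 in knockout and 8.66, 8.59, 8.65 and 8.67 in wild type arrays. Every knockout array lay below every wild type array, and the wild type arrays were tightly grouped. On the log2 scale the gene was lower by a fold change of −0.40 (SE 0.07), or 1.32-fold, and it was −0.45, −0.24 and −0.54 within the 3 title groups. The gene passed the threshold, as 7.05% of all genes did downwards, but not when knockout 3 was left out (−0.35).

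Slc22a16, the carnitine carrier of the male reproductive tract, was bright on every array. Its log2 signals were 9.58, 9.77 and 9.63 in knockout and 9.94, 9.88, 9.90 and 9.81 in wild type arrays. The groups did not overlap, although knockout 2 and wild type 4 differed by little. Knockout minus wild type was −0.22 (SE 0.07), which did not pass. Within the title groups it was −0.36, −0.12 and −0.18. It passed in 6 of 16 other settings, among them without knockout 2.

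Slc22a5, the high-affinity sodium-dependent carnitine carrier, was nearly equal between genotypes. The brighter of its 2 probe sets, 1450395_at, read 8.70, 8.81 and 8.79 in knockout and 8.78, 8.65, 8.87 and 8.78 in wild type arrays, so the groups overlapped throughout. Their means differed by −0.003 (SE 0.07). The other probe set, 1421848_at, read 6.50, 6.60 and 6.58 in knockout and 6.43, 6.15, 6.50 and 6.33 in wild type arrays. There the knockout arrays reached from the highest wild type value upwards. The difference of 0.21 (SE 0.09) did not pass when each probe set was tested on its own. The 2 probe sets of this gene therefore do not show the same difference.

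Slc22a4, the ergothioneine carrier, was dim on every array. It read 2.71, 2.73 and 2.81 in knockout and 2.73, 2.73, 2.62 and 2.73 in wild type arrays, far below the array medians. A difference of 0.05 (SE 0.06) therefore says little about the level of this transcript.

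The members of less settled substrate differed in direction. Slc22a18, an orphan carrier in an imprinted region of chromosome 7, was lower in knockout testis with both of its probe sets. The main one, 1427531_a_at, read 6.81, 6.68 and 6.70 in knockout and 7.06, 6.94, 7.07 and 6.92 in wild type arrays. The second, 1417809_at, read 6.05, 6.13 and 5.91 in knockout and 6.52, 6.53, 6.65 and 6.73 in wild type arrays. Genotypes did not overlap on either. Their log2 fold changes were −0.27 (SE 0.07) and −0.58 (SE 0.08). The main one passed the threshold over genes, and the second passed when each probe set was tested on its own. The difference of the main probe set was −0.25, −0.33 and −0.22 within the title groups. Its call was the least stable of the members that passed: it held in 1 of 7 settings with 1 array left out, that without wild type 4 (−0.24 to −0.31 over the 7).

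Slc22a17, a receptor proposed for the siderophore-binding protein lipocalin 2, read 7.07 on all 3 knockout arrays and 7.09, 6.90, 7.12 and 6.82 on the wild type arrays. The knockout value lay inside the wild type range. At 0.09 (SE 0.08) the log2 fold change did not pass. Slc22a23, an orphan carrier, read 4.89, 5.15 and 5.09 in knockout and 4.85, 4.60, 4.89 and 4.85 in wild type arrays. Knockout 1 equalled the highest wild type array and the others lay above it. A log2 fold change of 0.25 (SE 0.09) did not pass and varied within the title groups (0.04, 0.41 and 0.24).

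**Figure D3:**
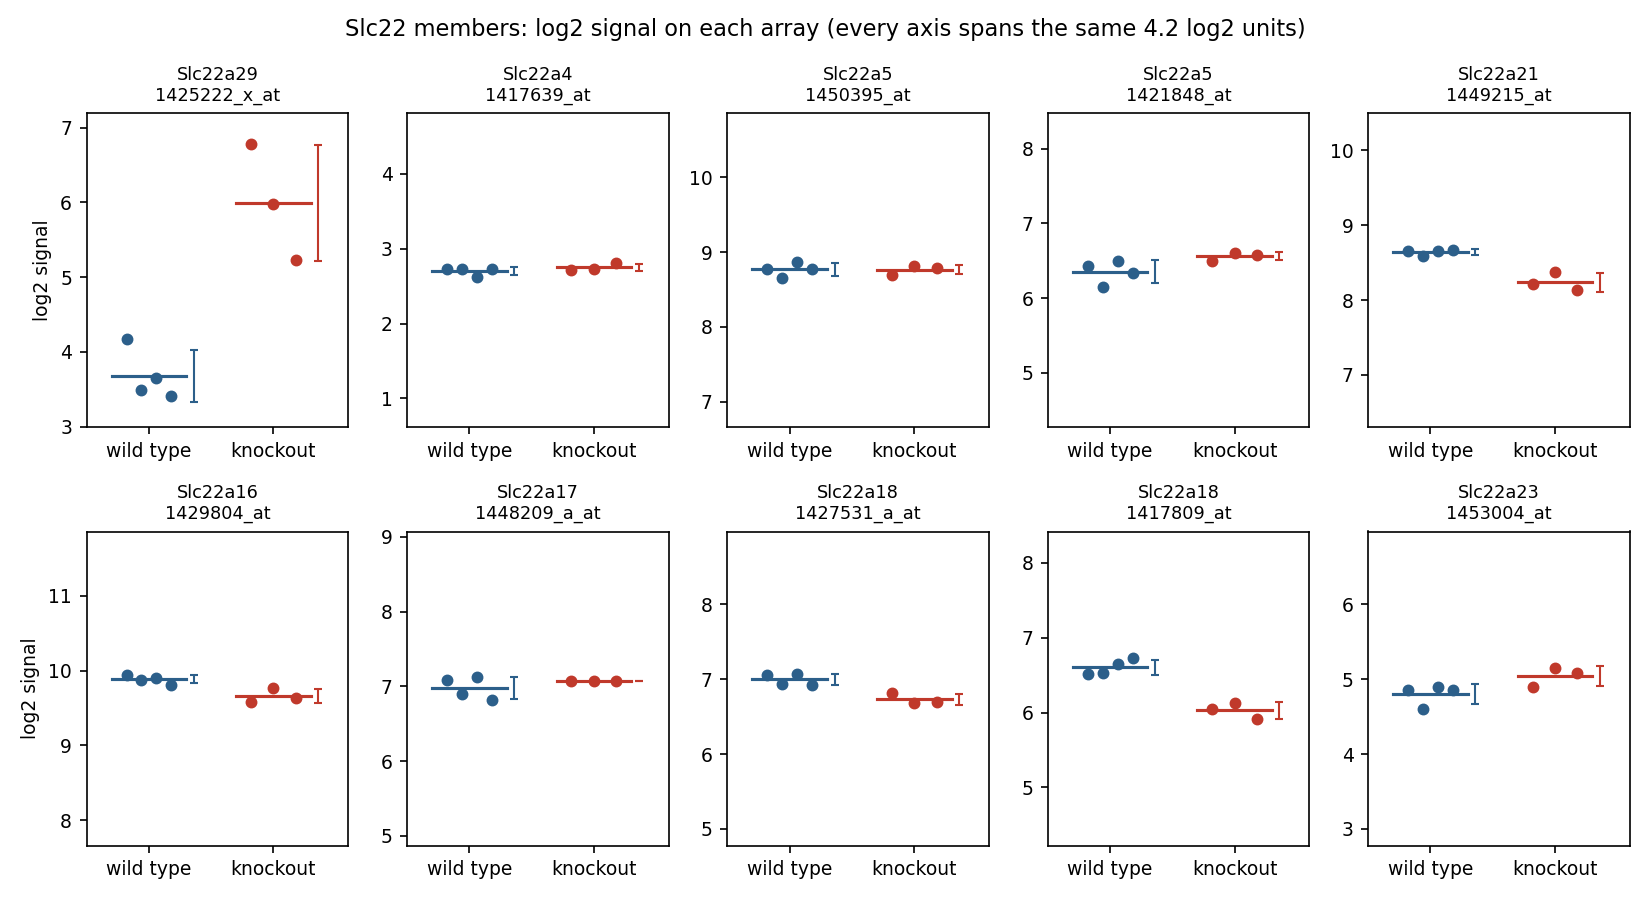
Log2 signal (y axis, the same span in every panel) on each array (points) for the 10 probe sets of the 8 measured members, by genotype (x axis); horizontal lines are means and bars beside them 1 SD. Slc22a29 separates by 2.31 log2 units, while every other panel shows a difference of 0.58 or less.

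Of the 8 measured members, 1 rose, 2 fell and 5 did not pass, where 16.1% of all genes passed in either direction. Genotypes did not overlap for 4 of the 8, against 28.0% of all genes. Of their 10 probe sets, 4 passed when each probe set was tested on its own, against 11.4% of all probe sets with 1 symbol. The median log2 fold change was 0.02 for the members and −0.045 for all genes. Since the genotype difference chose the family, nothing is read from these shares.

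The rest of the family was mostly dim: 9 of 13 measured genes had a mean signal below the lowest array median. Of 16 other Slc22 genes 13 were measured; 2 of these fell, 0 rose and the remaining 11 missed the threshold, with a median log2 fold change of −0.08; 16.1% of all genes passed. Slc22a15, an orphan carrier gene, fell by 0.40 with its brighter probe set (SE 0.08, limma adjusted p = 0.0186). The dimmer one differed by 0.03, and the call was lost on the mean of both (−0.18) and without knockout 1, knockout 3 or wild type 1. Slc22a26, a neighbour of Slc22a29 in the chromosome 19 row, fell by 0.30 (SE 0.07, adjusted p = 0.0290) at a level below the array medians (wild type mean 4.11). Its second probe set differed by −0.07, and the call was lost on the mean of both (−0.19) and without knockout 1, knockout 3, wild type 1 or wild type 2. Slc22a14, known for a role in sperm, differed by −0.15 (SE 0.09, limma adjusted p = 0.286).

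**Figure D4:**
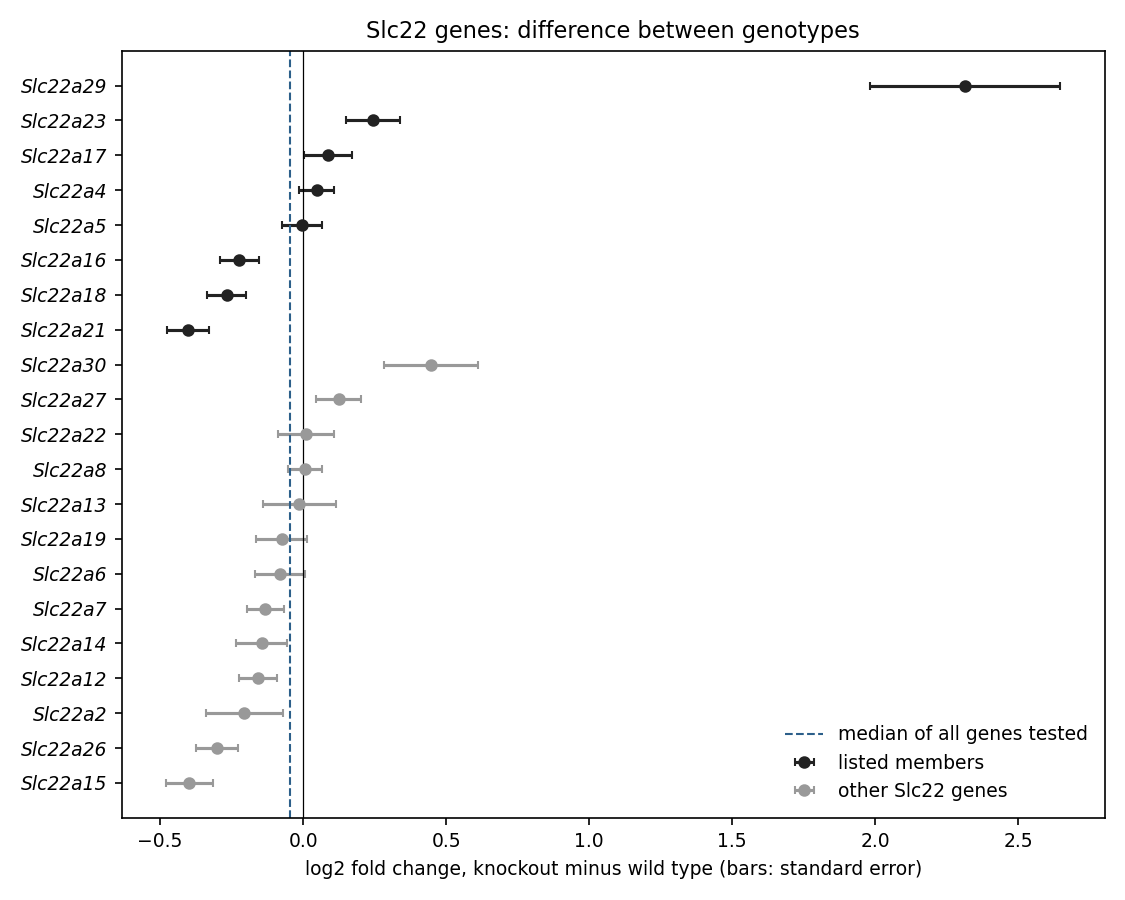
Log2 fold change, knockout minus wild type (x axis), of the 8 measured members (black) and 13 other Slc22 genes (grey), each by its main probe set (y axis); bars are standard errors and the dashed line is the median of all genes (−0.045). Slc22a29, whose difference chose the family, lies at 2.31, and the other 20 genes lie between −0.40 and 0.45.

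Carnitine carriers feed the shuttle that brings fatty acids into mitochondria. Among 11 measured genes of carnitine synthesis and the shuttle 1 rose, while 10 missed the threshold and 0 fell (median log2 fold change 0.23), near the 9.07% of all genes that rose. Cpt1a, which encodes an outer carnitine palmitoyltransferase, rose by 0.45 (SE 0.11, limma adjusted p = 0.0260). Crat, carnitine acetyltransferase, differed by −0.25 (SE 0.07, adjusted p = 0.0525), and Tmlhe, which starts carnitine synthesis, by 0.28 (SE 0.09, adjusted p = 0.0702). Neither passed. Of 13 genes of fatty acid oxidation, 6 rose, 0 fell and 7 did not pass (median 0.22), where 9.07% of all genes rose. Sertoli cell markers (14 of 16) and Leydig cell markers (7 of 10) rose in the same arrays. Hadh (0.76, SE 0.13, adjusted p = 0.0132), Acadm (0.63, SE 0.11, adjusted p = 0.0147) and Echs1 (0.61, SE 0.12, adjusted p = 0.0168), enzymes of the oxidation cycle, were among those that rose. So were the dehydrogenase gene Acadl and the electron transfer genes Etfa and Etfdh. Of the 13 genes 11 were higher and 2 lower in knockout. The lower ones were Ppargc1a (−0.49, SE 0.15, limma adjusted p = 0.0537), whose genotypes did not overlap, and Hadha (−0.15, SE 0.08, adjusted p = 0.233). Neither passed.

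Among 25 other carriers of organic ions with a probe set 1 rose and 3 fell, and 21 missed the threshold (median −0.04). The share that passed was near the 16.1% of all genes. Abcc1, an efflux pump of conjugated anions, rose by 0.69 (SE 0.10, limma adjusted p = 0.0116). Abcc3, a related pump, fell by 0.34 (SE 0.08, adjusted p = 0.0245), and this call was lost with the title groups as a block. The anion carrier genes Slco6d1 (−0.33, SE 0.07, adjusted p = 0.0236) and Slco6c1 (−0.25), both known from testis, fell, and the call of Slco6d1 was lost in 4 of 7 settings with 1 array left out. None of 3 PDZ scaffold genes, whose products anchor several Slc22 proteins, passed: Pdzk1 differed by −0.24 (adjusted p = 0.0634 in limma), Slc9a3r1 by 0.09 and Slc9a3r2 by −0.23.

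Genes of lipocalin and iron handling were listed for the proposed lipocalin receptor Slc22a17. With 10 on the array, 4 rose, 6 missed the threshold and 0 fell (median 0.32), where 9.07% of all genes rose. Of the macrophage markers 6 of 11 rose in the same arrays, and of the Sertoli cell markers 14 of 16. Lcn2 itself, the lipocalin, rose by 1.04 (SE 0.19, adjusted p = 0.0149, limma). The iron importer gene Slc11a2 rose by 0.66 (SE 0.09; 0.22 on the mean of its probe sets), the ferritin heavy chain gene Fth1 by 0.46 (SE 0.08) and the iron exporter gene Slc40a1 by 0.71 (SE 0.17).

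The nearest measured genes on either side of each member were also read. Of 12 such genes outside the family, 1 rose, 1 fell and 10 did not pass, a share near the 16.1% of all genes that passed. Plg and C030013G03Rik, beside the unmeasured Slc22a3, were among those that did not pass. Pdlim4, next to Slc22a4, rose by 0.85 (SE 0.13, limma adjusted p = 0.0121), and Pxdc1, next to Slc22a23, fell by 0.45 (SE 0.08, adjusted p = 0.0150). Next to Slc22a18 lie the growth inhibitor gene Cdkn1c (−0.45, SE 0.13, adjusted p = 0.0525) and Phlda2 (−0.18, SE 0.08, adjusted p = 0.159), both imprinted like it. Neither passed, but Cdkn1c did with the title groups as a block (−0.47, limma adjusted p = 0.0243) and in 4 other settings. Of 12 genes in or near the imprinted regions that hold Slc22a18 and Slc22a3, 1 rose and 11 did not pass (median −0.06), where 9.07% of all genes rose. The one that rose was Cd81, a tetraspanin gene (0.91, SE 0.13, adjusted p = 0.0116). Outside the members 20 of the genes chosen for naming passed, where 16.1% of all genes did. Many were chosen for a small p in their list or for likeness to Slc22a29, so nothing is read from this count. Without knockout 3, 2 of the 20 stayed past the threshold, Phf13 and Zfp982, both on chromosome 4. Over all genes the number past the threshold fell from 2934 to 175 in that setting. Without knockout 1 and without wild type 1, 9 of the 20 stayed past it in each case, and leaving out any other array kept 14 to 18. Inppl1 and Kdm3b held in 0 of these 7 runs, Srpr in 1, Cpt1a in 2, Slco6d1 and Slc22a26 in 3, Acadm, Echs1, Lcn2, Abcc3 and Slc22a15 in 4, and Hadh, Abcc1, Slc11a2, Fth1, Cd81, Pdlim4 and Pxdc1 in 6.

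**Figure D5:**
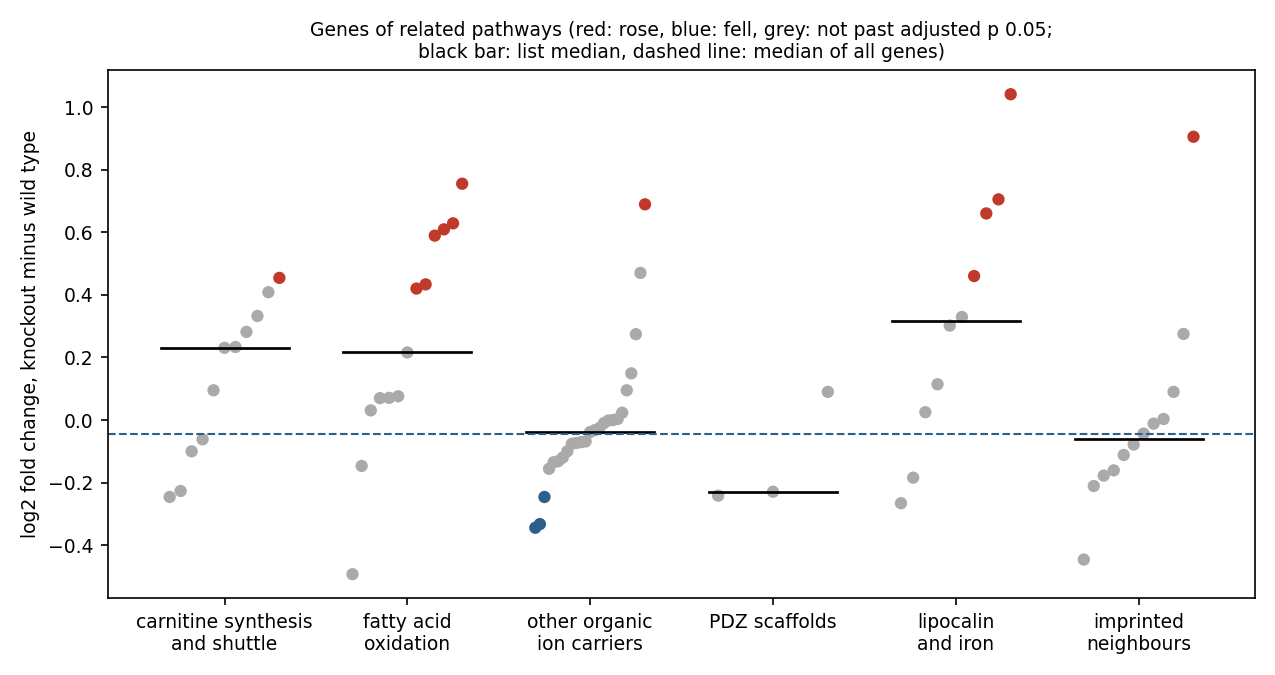
Log2 fold change, knockout minus wild type (y axis), of each measured gene (points) in 6 lists related to the Slc22 carriers (x axis); red points rose, blue points fell, grey points did not pass, black bars are list medians and the dashed line is the median of all genes (−0.045). The list medians run from −0.23 (PDZ scaffolds) to 0.32 (lipocalin and iron).

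Markers of somatic cells moved with genotype in the same arrays. Of all genes 9.07% rose and 7.05% fell, and their median log2 fold change was −0.045. Of 16 measured Sertoli cell markers 14 rose, with a median log2 fold change of 0.62 and a summed linear signal of 21958 to 23691 in knockout and 13183 to 16925 in wild type arrays. Of 10 Leydig cell markers 7 rose (median 0.91, summed signal 13808 to 16803 against 6573 to 10115). Among 11 macrophage markers 6 rose (median 0.56, 1387 to 2199 against 994 to 1284). For 8 peritubular myoid markers the number was 4 (median 0.50, 2418 to 2716 against 1475 to 1809). Germ cell lists had medians of both signs, and most of their markers did not pass. Of 9 spermatogonia markers 3 rose and 0 fell (median 0.21, 1309 to 1551 against 1030 to 1281). Of 10 spermatocyte markers 0 rose and 2 fell (median −0.115, 10356 to 12131 against 11183 to 12241, so the sums overlapped). Among 9 round spermatid markers 2 fell (median −0.17, 25433 to 25810 against 26362 to 28554), and 2 of 11 elongating spermatid markers did (median −0.08, 67697 to 69141 against 69852 to 73902). All 9 and all 11 of these were lower in knockout, 0 were higher, and the sums of both lists did not overlap between genotypes. No marker was listed at 0. Of 7 endothelial and 9 epididymal or rete testis markers, 0 and 0 rose and 0 and 1 fell (limma). The part of cell makeup in the differences of Slc22a29, Slc22a21, Slc22a18 and Slc22a16, and in those of the carnitine, fatty acid oxidation, carrier, iron and neighbour genes, was not tested.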

How the data were processed

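Whole testis RNA (2 ug per labelling) was measured on 7 Affymetrix arrays. The deposited table holds log2 signals that the authors made with Affymetrix Expression Console 1.4.1, per the submitters' processing notes. Summarisation, background correction and normalization are not given in the sources used here, and the log2 scale was read from the values. Arrays give no read depth, and their number limits the precision (median SE 0.0843).

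Probe sets were named from the platform annotation. Those with 1 symbol (34958; 932 had several and 9211 none) were kept, and the brightest of them on average stood for its gene. The genotype contrast was fitted in R 4.3.3 using limma 3.58.1 (two-sided, lmFit followed by eBayes) with Benjamini-Hochberg adjustment over all 18194 genes at 0.05; rose and fell refer to this threshold. A test on simulated data had 200 of 18194 genes changed and noise independent between arrays. There 92% of genes changed by 1 log2 unit and 51% of those changed by 0.5 were recovered. In the real data 2934 genes passed and deviations correlated within title groups, so these shares may not hold there.

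Promoter sequences came from RefSeq and were aligned with Biopython 1.88; the protein comparison that had been planned was not run. Members and lists were chosen with earlier results of these data known. Genes named outside the members were the 3 of smallest unadjusted p in each list, the measured neighbours of members and the 5 most like Slc22a29. Slc22a14, Ppargc1a, Hadha and the further list genes that passed were named after their values were seen. Alternatives were other normalizations, a filter on dim genes, averaging of probe sets, blocks by title digits or replicate number, other limma settings and leaving out arrays. Deviations from the genotype means correlated at 0.103 to 0.319 between genotypes within the title groups and at most 0.0227 outside them.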

Additional observations from a re-analysis of the deposited data

Results flagged for a closer look

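Among 11 probe sets of the members, 2 had 1 wild type array set apart from the other 3 by Dixon's criterion for 4 arrays, which chance meets in about 1 of 20 groups. For Slc22a4 the wild type arrays read 2.73, 2.73, 2.62 and 2.73, and the gap of wild type 3 was the whole range (ratio 1). For Slc22a23 they read 4.85, 4.60, 4.89 and 4.85, and wild type 2 was the low one (ratio 0.862). Without wild type 2 the log2 fold change of Slc22a23 was 0.18.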

How the results depend on the processing

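Over all genes 2934 passed, and 2294 to 3443 with other normalizations, filters, blocks or limma settings; with 1 array left out the count ran from 175 (without knockout 3) to 2574. It was 4 without both knockout 3 and wild type 4, an alternative chosen after seeing the data. Slc22a29 stayed past the threshold in 14 of 15 settings (log2 fold change 1.92 to 2.70) and lost it only in that last one (2.61). As this contrast chose the gene, nothing is read from that tally. Slc22a21 stayed past in 14 of 16 (−0.47 to −0.34) and Slc22a18 in 8 of 16 (−0.42 to −0.24). Slc22a29, Slc22a4 and Slc22a23 are not among the brighter 50% of genes and have no value under that filter. The sign of Slc22a5 turned with quantile normalization (0.0236), with the mean of its probe sets (0.10) and in some runs with 1 array left out (−0.0433 to 0.03). Beside Slc22a3, the sign of Plg (main −0.008) turned with quantile normalization (0.00893), array weights (0.0251) and the replicate block (0.00667), and with 1 array left out it ran from −0.125 to 0.145. That of C030013G03Rik ran from −0.025 to 0.14 with 1 array left out and was −0.00167 without knockout 3 and wild type 4, and that of Pabpn1 turned with the mean of its probe sets (0.136). The cause of these turns was not tested. With replicate numbers as a block 2294 genes passed and Slc22a18 did not (−0.29). Same-numbered arrays correlated in their deviations at 0.182, 0.103 and −0.143. The pairs numbered 1 and 2 also share a title group, so number and title group cannot be told apart there. Whether the replicate numbers mark a batch was not tested.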
